A study of Mus musculus with 2 samples.

Results

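Open chromatin sites far from any protein-coding gene start are described here for mouse hippocampus. A site qualified when it was a DNase-seq peak of replicate 1 on chromosomes 1 to 19 that overlapped a peak of replicate 2 by at least 1 bp, touched no gene record of any type in GENCODE M21, and had its midpoint more than 200 kb from the nearest protein-coding transcript start. The rule used position and presence in both libraries, and not the height of a peak. It found 6009 sites, called desert sites below, among 78761 shared autosomal peaks, of which 27848 lay outside gene records. For comparison, 16362 shared peaks outside gene records lay 10 to 200 kb from such a start, and these are called nearer intergenic sites.

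The name desert holds only for the protein-coding genes of GENCODE M21. The median desert site lay 366 kb from a protein-coding start but 49.5 kb from the start of some annotated transcript, which by the rule is not of the protein-coding type. Only 447 sites (7.44%) were more than 200 kb from the start of every annotated transcript. RefSeq is a second annotation of the same assembly. Its gene or pseudogene records overlapped 625 sites (10.4%), against 15.8% of nearer intergenic sites, which also lie outside GENCODE gene records. Of all shared autosomal peaks, most of which lie in genes, they overlapped 66.7%. A long noncoding RNA record overlapped 553 desert sites and a protein-coding gene record 41. RefSeq placed a messenger RNA start within 200 kb of 293 sites (4.88%) and within 10 kb of 19 (0.32%).

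DNase-seq maps open chromatin through the places where DNase I can reach and cut the DNA of intact nuclei. The nuclei came from tissue labelled as layer of hippocampus, from female F1 cross mice (B6CASTF1/J) aged 8 to 10 months. There was 1 group of 2 libraries, each a pool of 2 biosamples, with no treatment and no second group. Whether the pools held different animals is not in the labels, so differences between the libraries may be technical, and no test between groups was possible. A shared peak lay at the promoter of 46 of 56 forebrain transcription factor genes (82.1%). The same held for 8 of 45 genes for transcription factors of other tissues (17.8%) and for 58.6% of all autosomal protein-coding genes. The gene lists were chosen with earlier results of these data known, so these counts are no independent check of the tissue label.

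Distal open sites include enhancers, which bind transcription factors and act on promoters over long distances, insulator sites bound by CTCF, which anchor chromatin loops, and starts of unannotated transcripts. Genes that control development or neuronal wiring often sit beside long stretches without other genes, and such stretches can hold many of their enhancers. In excitatory forebrain neurons, factors of the NeuroD family bind E-boxes of the form CAGATG, and nuclear factor I (NFI) proteins bind sites that contain TTGGCA.

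The stretches of 60 bases below show what carried the main sequence result. In each, the capitals mark the CAGATG letters on either strand (CATCTG is the same motif read from the other strand). All 5 sites had a footprint, a short stretch of few cuts within an open site, over the motif in both libraries, and they are among the highest of such sites by mean signal. These E-box examples were chosen after their values were seen. All sequences are of the mm10 reference assembly, plus strand, and not of the animals.

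Site nearest Triqk, chr4:13147043-13147102: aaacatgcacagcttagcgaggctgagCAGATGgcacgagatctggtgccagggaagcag

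Site nearest Ccnh, chr13:84758714-84758773: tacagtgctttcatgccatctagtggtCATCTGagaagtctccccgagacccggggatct

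Site nearest Atp23, chr10:126511663-126511722: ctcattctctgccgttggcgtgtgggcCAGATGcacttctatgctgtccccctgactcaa

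Site nearest Zmiz1, chr14:25226632-25226691: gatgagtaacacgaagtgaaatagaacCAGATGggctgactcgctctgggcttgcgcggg

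Site nearest Gm10260, chr13:97559795-97559854: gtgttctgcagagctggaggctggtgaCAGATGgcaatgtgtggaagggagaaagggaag

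The next 4 stretches show the rarer class, desert sites that match the CTCF consensus (capitals) with a footprint over it in both libraries. They are among the 5 highest such sites by mean signal.

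Site nearest Gm31371, chr8:20122175-20122234: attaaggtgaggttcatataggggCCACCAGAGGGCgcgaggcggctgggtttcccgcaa

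Site nearest Ccnh, chr13:84758704-84758763: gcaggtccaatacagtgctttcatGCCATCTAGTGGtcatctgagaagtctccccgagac

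Site nearest Bmper, chr9:23581186-23581245: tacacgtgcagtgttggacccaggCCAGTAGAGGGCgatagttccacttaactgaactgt

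Site nearest Gm10184, chr17:89654532-89654591: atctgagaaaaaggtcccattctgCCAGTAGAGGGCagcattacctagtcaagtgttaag

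The site nearest Ccnh carries both motifs side by side, with the E-box letters starting directly after a single base that follows the CTCF match.

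Desert sites carried the proneural E-box more often, and the CTCF consensus less often, than open sites nearer to genes. In a window of 200 bp around the midpoint, CAGATG on either strand was present in 2445 desert sites (40.7%), against 32.1% of nearer intergenic sites and 27% of all shared autosomal peaks. Windows of the same length centred 1000 bp to either side of the desert sites held it in 14.2%, and the same letters written backwards were present in 4.34% of the desert sites. With the peaks of replicate 2 in place of those of replicate 1, the share was 40.5%. A match is a description of letters and not of a bound factor.

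The NFI site TTGGCA behaved alike. It was present in 1654 desert sites (27.5%), in 22.3% of nearer intergenic sites, in 19.4% of all shared autosomal peaks and in 10.3% of the flanking windows. Its reversed letters, ACGGTT, were in 1.5% of desert sites and 2.26% of nearer intergenic sites. They contain a CpG, which the reversed CAGATG does not, so the reversed shares of these motifs are not comparable. The longer NFI palindrome was found in 8 desert sites. Another E-box, CAGCTG, was at 21.9% in desert sites, 21.2% in nearer intergenic sites and 7.04% in flanking windows, against 19.4% of all shared autosomal peaks. The E-box bound by ZEB factors was less frequent in desert sites (12.3%) than in nearer intergenic sites (13.7%). It was in 13.5% of all shared autosomal peaks and 10.0% of flanking windows. A joint count covered the proneural E-box, the NFI site and the E-box at 21.9%, but not the ZEB one. At least 1 of these 3 motifs was present in 4133 desert sites (68.8%). The share was 59.1% in nearer intergenic sites, 51.9% in all shared autosomal peaks and 28.1% in flanking windows. Both the proneural E-box and the NFI motif were in 605 desert sites, out of 2445 with the former and 1654 with the latter. Whether they occur together more or less often than their separate shares would give was not tested.

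The CTCF consensus was matched in 200 desert sites (3.33%), 9.74% of nearer intergenic sites and 6.88% of all shared autosomal peaks. Flanking windows matched it in 0.125%, so the desert share was 26.7 times that of the sequence beside the sites although it was 0.34 times that of nearer intergenic sites. Of the 200 matches, 124 (62.0%) had a footprint over them in both libraries, compared with 81.7% of the matches in all shared autosomal peaks. For CAGATG the corresponding shares were 21.3% of 2445 desert matches and 23.4% of all matches. In replicate 1 the median signal was 0.521 for desert sites with a CTCF match and 0.406 for those without, and in replicate 2 it was 0.895 and 0.541. Sites with and without CAGATG were close, at 0.412 and 0.406 in replicate 1 and 0.557 and 0.541 in replicate 2.

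**Figure D1:**
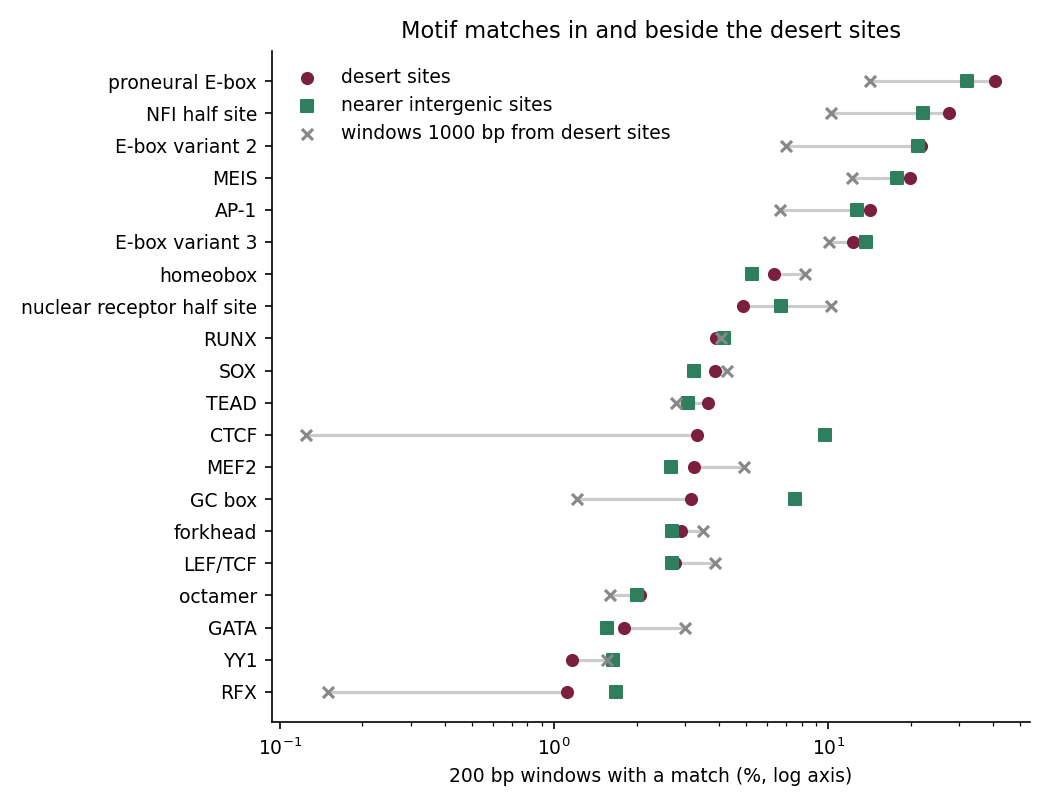
Share of 200 bp windows with a motif match (percent, log axis) for the 20 motifs present in at least 1% of desert sites, for desert sites (circles), nearer intergenic sites (squares) and windows 1000 bp from the desert sites (crosses). E-box variant 2 is CAGCTG and variant 3 is the E-box bound by ZEB factors. The proneural E-box leads at 40.7% and lies to the right of both comparisons, while CTCF at 3.33% lies between its flanking windows at 0.125% and the nearer sites at 9.74%.

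Other motifs fell on either side. Of 28 motifs searched on both strands, 18 were more frequent in desert sites than in the flanking windows, 14 of them by at least 1.5 times, and 10 were less frequent. The AP-1 site TGANTCA, bound by Fos and Jun dimers, was in 14.2% of desert sites, 12.7% of nearer intergenic sites and 10% of all shared autosomal peaks. The MEIS site TGACAG was in 19.8% of desert sites and 12.2% of flanking windows. The RFX site GTTGCCATG was in 1.11% of desert sites against 1.32% of all shared autosomal peaks, and in 0.150% of flanking windows.

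The homeobox, MEF2 and SOX motifs were less frequent in desert sites than in their flanks and more frequent than among all shared peaks. The homeobox site TAATTA was in 6.36% of desert sites, 8.25% of flanking windows and 3.88% of all shared autosomal peaks. MEF2 matches were in 3.25%, 4.93% and 2.13%, and the SOX site AACAATG in 3.86%, 4.28% and 2.65%. Promoter motifs were rare. The GC box GGGCGG was in 3.16% of desert sites and 17.6% of all shared autosomal peaks, and the ETS site CCGGAAG in 0.70% and 3.61%. Base composition moves with these shares. Desert sites had a median GC content of 46.5%, nearer intergenic sites 50%, all shared peaks 52.1% and flanking windows 40.5%, and the part of composition in the motif differences was not tested.

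The motif shares changed in steps with distance from the nearest protein-coding start. Among shared intergenic peaks, CAGATG was in 19.4% of those within 10 kb, 29.5% at 10 to 50 kb, 33.2% at 50 to 100 kb, 36.1% at 100 to 200 kb, 39.2% at 200 to 500 kb and 44.2% beyond 500 kb. TTGGCA went from 14.6% within 10 kb to 29.6% beyond 500 kb. CTCF matches were highest at 10 to 50 kb, with 12.7%, and fell to 8.10%, 5.45%, 3.57% and 2.77% in the 4 classes beyond. The GC box fell from 23.7% within 10 kb to 1.44% beyond 500 kb. Peaks of replicate 2 gave the same order in each of these series, for example 2.72% for CTCF and 44.1% for CAGATG beyond 500 kb. The 2 libraries share most of these places, so the second series is not independent of the first.

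**Figure D2:**
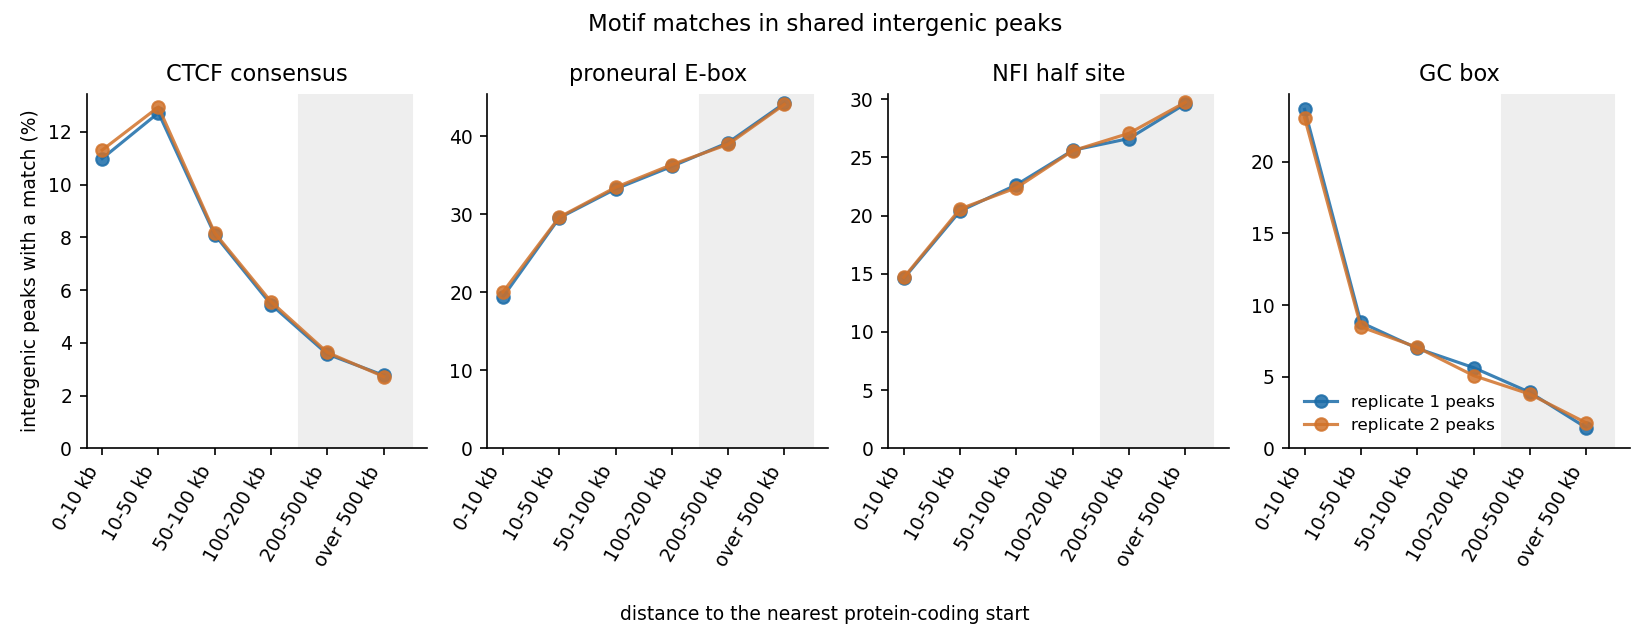
Share of shared intergenic peaks with a match of the CTCF consensus, the proneural E-box, the NFI motif and the GC box (percent, each panel from 0) by distance to the nearest protein-coding start, for peaks of replicate 1 (blue) and replicate 2 (orange). Shading marks the 2 classes of desert sites. CTCF falls from 12.7% at 10 to 50 kb to 2.77% beyond 500 kb in replicate 1, and the proneural E-box goes from 19.4% to 44.2%.

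Desert sites were weak sites, so the motif shares were also compared at matched signal. All shared peaks were split into 5 equal classes of the signal of replicate 1. The lowest class held 52.2% of desert sites and 28.3% of nearer intergenic sites. From the lowest class to the highest, CTCF matches were in 2.11%, 3.88%, 5.02%, 6.03% and 4.14% of desert sites and in 5.18%, 8.89%, 11.6%, 14.4% and 12.4% of nearer intergenic sites. CAGATG was in 40.2%, 39.5%, 40.6%, 43.4% and 46.6% of desert sites and in 34.3%, 33.1%, 30.7%, 30.1% and 30.1% of nearer intergenic sites. The desert share was thus the lower of the pair for CTCF and the higher for CAGATG in all 5 classes. The same held in 5 classes of the signal of replicate 2, where the highest class had CTCF in 10.8% of desert and 20.9% of nearer intergenic sites and CAGATG in 49.1% and 27.9%.

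The deposited signal is the authors' own height of each peak and is compared within a library. Over the desert sites its median was 0.406 in replicate 1 and 0.549 in replicate 2. Nearer intergenic sites had medians of 0.582 and 0.739, and all shared peaks 0.691 and 0.835. The desert median was therefore 0.588 times that of all shared peaks in replicate 1 and 0.657 times in replicate 2 (mean 0.622 ± 0.049, SD, n = 2 libraries). Values over the desert sites ran from 0.133 to 10.8 in replicate 1 and from 0.127 to 12.2 in replicate 2. Only 83 desert sites (1.38%) had a mean signal of at least 2, against 12.3% of all shared peaks. In bulk tissue a weaker site may be open in fewer cells or less open in each, and these cannot be told apart.

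Density fell with distance as well. Desert places, the assembled autosomal sequence that meets the same position rule, made up 473 Mb or 19.7% of the assembled autosomes and held 12.7 desert sites per Mb, against 32.9 shared peaks per Mb of all assembled autosomes. By distance, intergenic sequence within 10 kb of a start held 38.9 shared peaks per Mb, the 200 to 500 kb class 16.4 and sequence beyond 500 kb 8.32. The median signal in replicate 1 fell over these classes from 0.860 to 0.436 and 0.357, and in replicate 2 from 1.07 to 0.572 and 0.485.

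**Figure D3:**
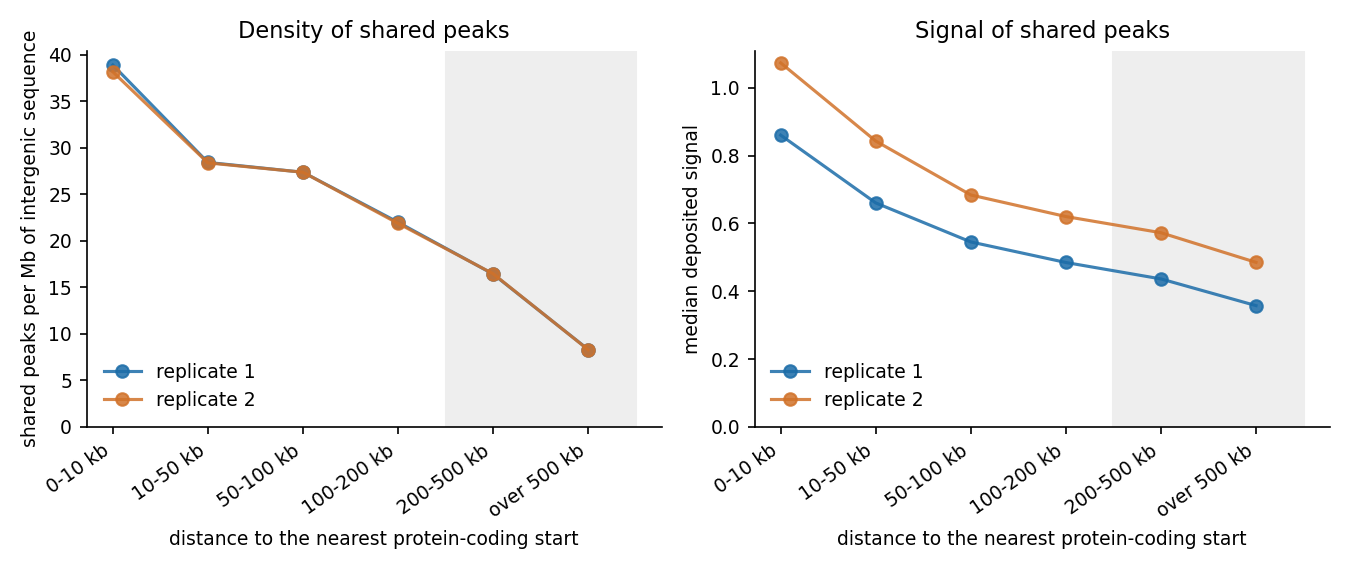
Left, shared peaks per Mb of assembled intergenic sequence by distance to the nearest protein-coding start, counted from the peaks of either library. Right, their median deposited signal in replicate 1 (blue) and replicate 2 (orange); shading marks the classes of desert sites. Density falls from 38.9 to 8.32 per Mb in replicate 1 and the median signal from 0.860 to 0.357.

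The open sites were not ordinary desert sequence. Desert places had 38.7% GC and 40.1% repeat-masked bases. Desert sites averaged 8.27% repeat-masked bases, close to the 8.25% of nearer intergenic sites, and their flanking windows averaged 24.6%. Peaks were narrow, with a median width of 200 bp and a range from 22 to 700 bp. Widths were similar in nearer intergenic sites (median 202 bp) and in all shared autosomal peaks (220 bp). A single CpG or more was present in all but 19.1% of desert sites, and all but 11.5% of nearer intergenic sites. The central 32 bases occurred again elsewhere in the assembly for 60 of 5986 desert sites (1.00%), against 1.08% of all shared autosomal peaks. Some members are not fully separate, as 19 overlapped another member and 65 shared their replicate 2 peak with one.

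The 2 libraries ranked the desert sites alike. Across sites, the log2 signals had a Pearson correlation of 0.852 and a Spearman correlation of 0.823 (n = 6009 sites of the same 2 libraries, all called in both by the rule). The median log2 ratio of replicate 2 to replicate 1 was 0.36, and 97.3% of sites lay within 2-fold of it. Over all shared peaks, where signals spread more widely, the correlations were 0.927 and 0.895.

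**Figure D4:**
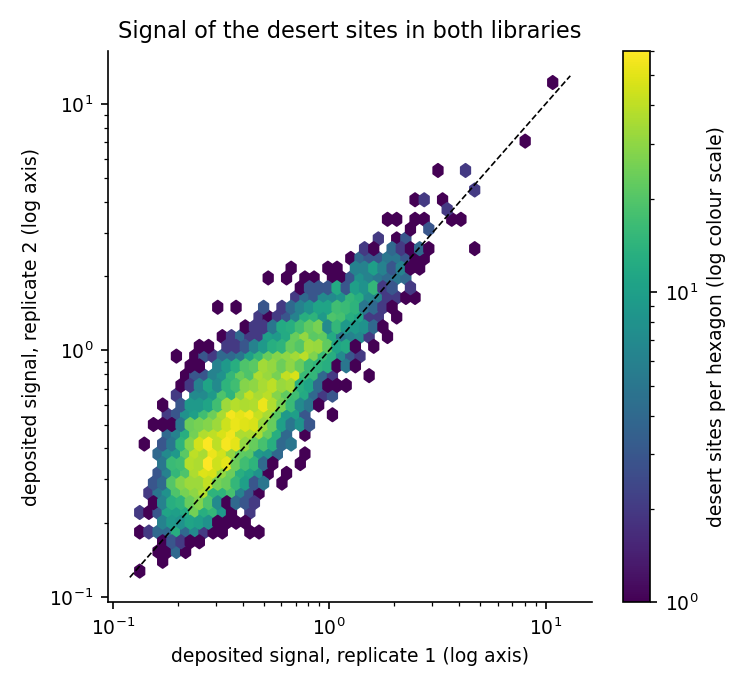
Deposited signal of the 6009 desert sites in replicate 1 (horizontal) and replicate 2 (vertical), both on log axes, with the number of sites per hexagon as colour and equality as the dashed line. Most sites lie above the line, as the median log2 ratio of 0.36 gives, and 2 sites stand above 7 in both libraries.

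Being found in both libraries belongs to the rule, so the peaks that failed it are given too. Replicate 1 had 7416 peaks in desert places, of which 81.0% (Wilson 95% interval 80.1 to 81.9) overlapped a replicate 2 peak, compared with 84.1% for nearer intergenic peaks and 81.8% for all autosomal peaks. Replicate 2 had 11829 such peaks, of which 50.8% (49.9 to 51.7) overlapped a replicate 1 peak, compared with 61.1% and 62.2%. At equal signal, the share of desert peaks found again was above that of all autosomal peaks in all 5 classes of either library, with overlapping intervals in the highest class of each and the lowest of replicate 2. In the lowest of 5 classes of its signal, 66.8% (65.2 to 68.2) of desert peaks were found again and 55.4% of all autosomal peaks, and in its highest class 99.7% and 99.4%. In replicate 2 the lowest class had 22.1% and 21.6%, and the next 3 classes had 57.8% and 41.6%, 81.2% and 63.8%, and 97.1% and 86.9%. Nearer intergenic peaks were also above all autosomal peaks in every class. Their shares were 61.9% in the lowest and 99.8% in the highest class of replicate 1. In replicate 2 the lowest class had 22.2%, and the next 3 had 47.3%, 70.1% and 90.6%. Desert peaks were above nearer intergenic peaks except in the highest class of replicate 1 and the lowest of replicate 2. Intervals cover counting error only.

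Under the authors' stricter peak lists, 3177 desert sites (52.9%) touched a peak in both libraries, against 58.4% of all shared autosomal peaks. A footprint lay on 4608 desert sites in replicate 1, on 4466 in replicate 2 and on 3796 (63.2%) in both, against 75.5% of all shared autosomal peaks. No footprint in either library was listed for 731 desert sites (12.2%), against 6.80% of all shared autosomal peaks. The share with a footprint in both libraries followed the signal. In the 5 classes of replicate 1 signal it was 38.5%, 81.9%, 93.8%, 97.8% and 99.6% for desert sites and 38.8%, 73.9%, 89.0%, 96.2% and 99% for nearer intergenic sites.

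The strongest desert site, chr8:20122141-20122320, reached 10.8 in replicate 1 and 12.2 in replicate 2, and ranked 65th among all shared autosomal peaks. It lay 219 kb from Gm31371, had 62.2% GC with 14 CpGs and matched the CTCF consensus printed above. The second, chr12:29291161-29291360, had 8.11 and 7.23 and lay 237 kb from Myt1l, a zinc finger factor of neurons. These 2 were the only desert sites among the top 1% of shared peaks by mean signal.

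The other 8 of the 10 strongest had mean signals between 3.61 and 4.82. The site nearest Triqk, chr4:13146921-13147180, had 4.40 in replicate 1 and 5.23 in replicate 2, with 6 and 4 footprints. The sites nearest Tprg (chr16:25059261-25059540) and Pcmtd1 (chr1:7398061-7398320) had 4.16 and 5.26, and 4.76 and 4.62. Both lay within 500 bp of the start of a RefSeq long noncoding RNA, A230028O05Rik and Gm26901, and each held 16 CpGs. The site nearest G2e3, chr12:51118021-51118300, had 4.74 and 4.63 and carried both CAGATG and the NFI motif. The site nearest Cdh20, a cadherin, at chr1:102628161-102628340 had 3.21 and 5.44 although it lay 2140 kb from that gene, and it held CAGATG.

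The whole G2e3 site is printed because it is a strong site, touches no RefSeq record and holds both leading motifs, in capitals.

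Site nearest G2e3, chr12:51118021-51118300: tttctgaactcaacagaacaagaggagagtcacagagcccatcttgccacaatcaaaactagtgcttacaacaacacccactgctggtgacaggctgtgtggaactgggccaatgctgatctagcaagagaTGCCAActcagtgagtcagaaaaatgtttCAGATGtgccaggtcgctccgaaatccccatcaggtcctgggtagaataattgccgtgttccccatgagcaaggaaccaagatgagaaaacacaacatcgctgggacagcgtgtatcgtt

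A transfer RNA gene accounted for 1 of the 10. The site nearest Atp10a, a phospholipid flippase gene, had 3.37 in replicate 1 and 4.31 in replicate 2 and 8 and 5 footprints. It covers the RefSeq record n-TEttc7, a tRNA gene of 72 bases (capitals). This was the only desert site of 6009 (0.0166%) over a RefSeq tRNA gene. The share was 0.446% in nearer intergenic sites and 0.244% in all shared autosomal peaks.

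Site nearest Atp10a, chr7:58399201-58399400: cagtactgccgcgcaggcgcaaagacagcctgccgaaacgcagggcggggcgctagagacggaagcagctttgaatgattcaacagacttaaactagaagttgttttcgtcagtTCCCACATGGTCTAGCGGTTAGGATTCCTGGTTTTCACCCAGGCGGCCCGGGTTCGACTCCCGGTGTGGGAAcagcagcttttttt

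The remaining 2 were the site nearest Ccnh, chr13:84758621-84758840, with 3.48 and 3.82, and the site nearest Myo3a, chr2:21918441-21918560, with 3.93 and 3.30. Each overlaps a RefSeq long noncoding RNA record, Gm34196 and Gm39767, but lay more than 500 bp from any RefSeq transcript start. Within 500 bp of any RefSeq transcript start lay 121 desert sites (2.01%), against 4.32% of nearer intergenic sites and 24.2% of all shared autosomal peaks. Their median signals were 0.533 and 0.596, and those of the other desert sites 0.406 and 0.541. Among the 83 desert sites with a mean signal of at least 2, 9 (10.8%) lay that close to a RefSeq start. Of nearer intergenic sites with that signal, 104 did and 584 did not, and of all 9666 such shared peaks 7233 did. CAGATG was in 37 of the 83 (44.6%), against 40.7% of all desert sites and 27% of all shared autosomal peaks. The GC box was in 8 (9.64%), against 3.16% and 17.6%, and the CTCF consensus in 5 (6.02%), against 3.33% and 6.88%. These comparisons include weak peaks. In the highest of 5 classes of replicate 1 signal, all shared autosomal peaks had CAGATG in 16.3%, the GC box in 42.0% and CTCF in 6.40%.

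RefSeq also lists enhancers with a tested activity, and 14 desert sites (0.23%) overlapped one, against 0.411% of all shared autosomal peaks and 0.57% of nearer intergenic sites. Their median signals were 0.803 in replicate 1 and 0.640 in replicate 2. Of these, chr15:61157601-61157820, 235 kb from A1bg, had 2.12 and 3.41 and a recorded activity in midbrain. The next, chr15:62903061-62903340, 906 kb from Gsdmc, had 2.73 and 2.12 and a recorded activity in neural tube. The list also holds elements recorded only outside the nervous system, such as a limb element 306 kb from Meis1 (0.885 and 0.962) and a heart element 240 kb from Fggy (0.376 and 0.358). The Gsdmc site is printed as an open desert site with an independent record of enhancer activity, with CAGATG on the other strand and TTGGCA at 2 places, in capitals.

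Site nearest Gsdmc, chr15:62903061-62903340: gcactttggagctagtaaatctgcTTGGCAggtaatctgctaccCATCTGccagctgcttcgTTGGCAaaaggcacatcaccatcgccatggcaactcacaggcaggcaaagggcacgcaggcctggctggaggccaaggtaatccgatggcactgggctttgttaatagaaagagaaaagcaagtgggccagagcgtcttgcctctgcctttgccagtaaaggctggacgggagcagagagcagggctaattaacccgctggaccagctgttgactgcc

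The most remote sites lay in the desert between Pcdh20 and Pcdh9, 2 protocadherin genes of chromosome 14. The farthest, chr14:91025526-91025718, was 2554 kb from Pcdh20 and had signals of 0.303 in replicate 1 and 0.525 in replicate 2. Of the 5 farthest sites, 4 lay in this desert, with signals between 0.206 and 0.515 in replicate 1 and between 0.167 and 0.580 in replicate 2. The other, chr1:102378724-102378900, was 2281 kb from Cntnap5b, had 0.315 and 0.557, and matched the CTCF consensus and CAGATG. In replicate 1 only the second farthest, at 0.515, was above the desert median, and in replicate 2 only the values 0.557 and 0.580 were.

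The threshold of 200 kb cut through a continuous range. The 3 sites just inside it were 200.028 kb from Diras2 (1.38 and 1.54), 200.108 kb from Rab10 (2.08 and 2.73) and 200.117 kb from Ifng (0.467 and 0.724). The 3 just outside were 199.963 kb from Rpl38 (1.15 and 1.83), 199.934 kb from Chst9 (0.303 and 1.04) and 199.875 kb from Chl1 (0.345 and 1.07). The values of the 2 sets overlap.

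Ratios between the libraries were extreme in few sites. The highest log2 ratios of replicate 2 to replicate 1 were 2.28 nearest Kcnt2 (0.297 and 1.44), 2.22 nearest Ets1 (0.206 and 0.962) and 2.06 nearest Gm5447 (0.376 and 1.57). The lowest were -1.33 nearest Vstm2a (0.460 and 0.183), -1.17 nearest Col12a1 (0.430 and 0.191) and -1.09 nearest Gm11232 (0.406 and 0.191). All 6 centres were unique in the assembly. Reads of a strain cross were placed on the reference assembly, and the effect of strain differences on these ratios was not tested.

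Most deserts held a site. The autosomes had 887 stretches between neighbouring protein-coding starts with some desert sequence, and 748 of them held a desert site. The median occupied stretch held 6. The 229 stretches with 10 or more sites held 3973 sites (66.1%) in 59.0% of the desert sequence, a share that choosing them by their count raises. Sites per Mb of desert sequence ranged over chromosomes from 9.88 on chromosome 14 to 16.4 on chromosome 7. Another shared peak lay within 10 kb of 2363 desert sites (39.3%), against 64.4% of all shared autosomal peaks. No other shared peak lay within 100 kb of 523 desert sites (8.70%), against 1.16% of nearer intergenic sites and 1.34% of all shared autosomal peaks.

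The 8 stretches with the most sites were flanked by genes with varied roles. The stretch between Celf4, an RNA-binding protein gene of neurons, and Pik3c3, a lipid kinase gene, held 52 sites at 14.4 per Mb of desert sequence. Between Auts2, a gene of brain development, and Castor2 lay 45 sites at 41.3 per Mb, led by chr5:132892661-132892920 with 3.59 in replicate 1 and 3.41 in replicate 2. Zfp608 and Gramd3 flanked 44 sites at 44.9 per Mb. Zeb2, a zinc finger repressor gene of neural development, and Acvr2a, an activin receptor gene, flanked 41 at 14.6 per Mb, of which the highest was chr2:45411921-45412140 with 2.05 and 2.07.

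The stretch between Agtr1b and Tbl1xr1, a corepressor gene, held 39 sites at 31.4 per Mb. The stretch between Camk1g, a calcium-dependent kinase gene, and Plxna2, a semaphorin receptor gene, held 37 at 44.2 per Mb, led by chr1:193576041-193576300 with 2.76 and 3.20. Celf2 and Gata3, a T cell factor gene with no shared promoter peak, flanked 37 at 19.4 per Mb. Tenm2, a teneurin adhesion gene of synapses, and Mat2b flanked 35 at 13 per Mb. The peaks of replicate 2 gave between 34 and 51 sites in these 8 stretches. Their density therefore ranged from near the desert average of 12.7 per Mb to more than 3 times it. Median signals ranged from 0.391 to 0.506 in replicate 1 and from 0.517 to 0.620 in replicate 2.

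**Figure D5:**
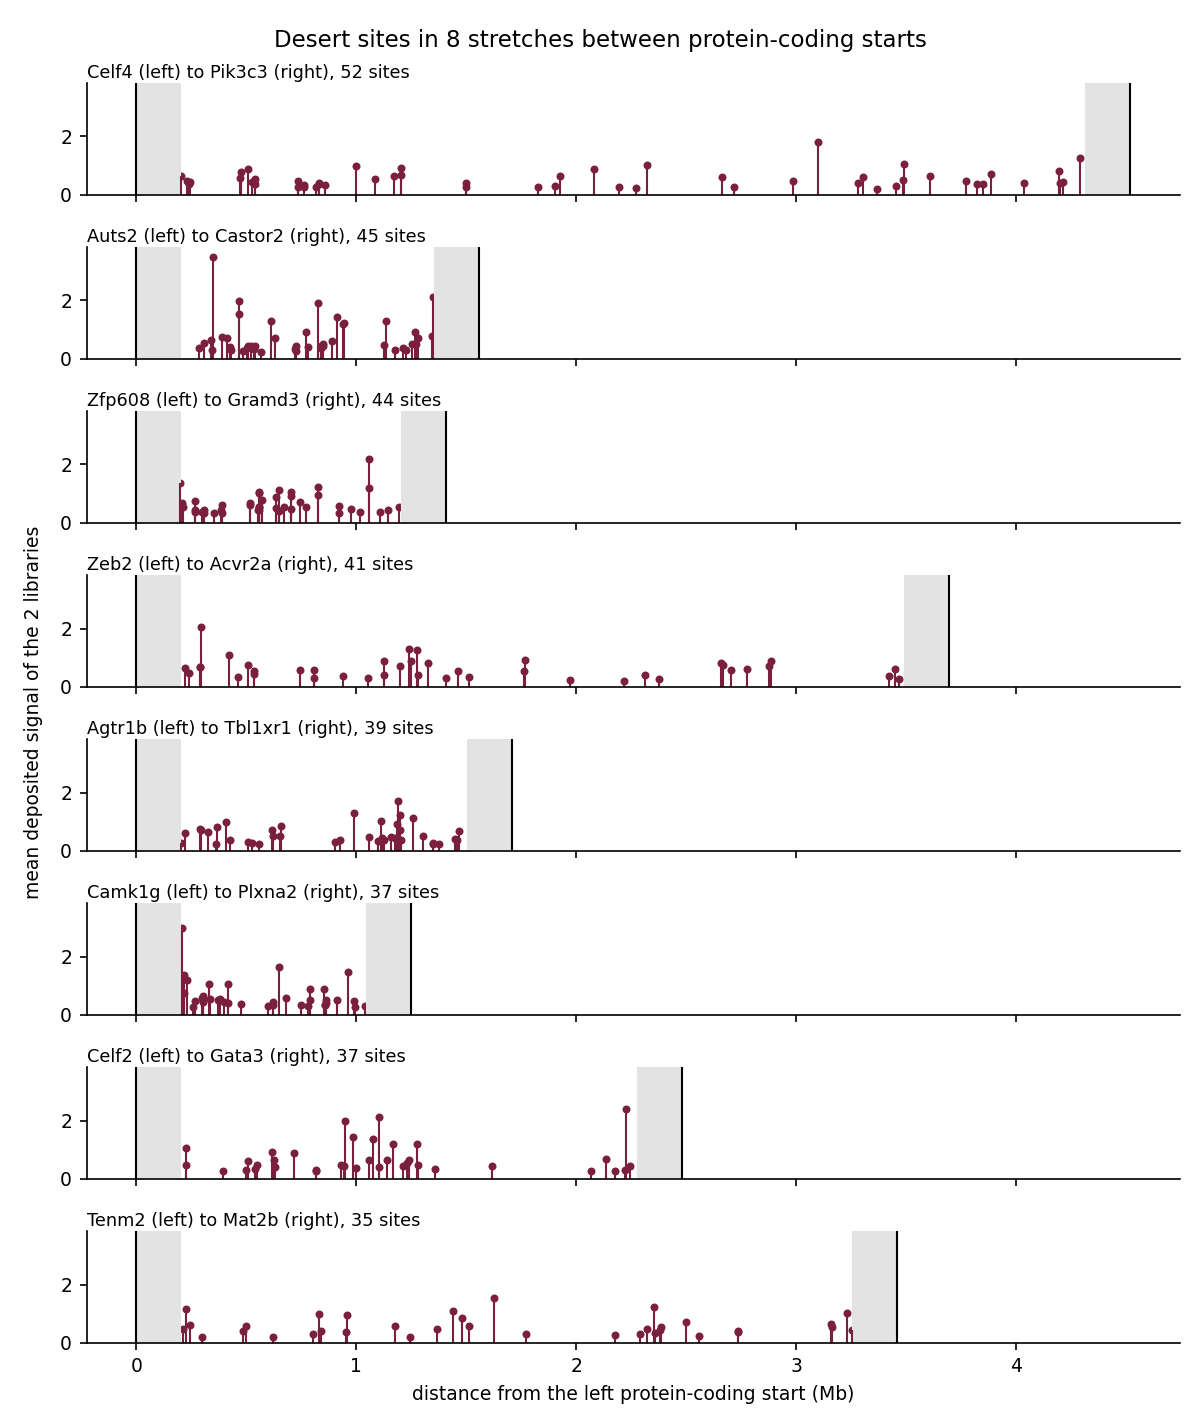
Position and mean deposited signal of the desert sites in the 8 stretches with the most sites, as distance from the left protein-coding start in Mb. Black lines mark the flanking starts and grey bands the first 200 kb beside them, where no site can qualify. The Celf4 to Pik3c3 stretch spreads 52 sites over 4.52 Mb, and the Camk1g to Plxna2 stretch packs 37 into 1.25 Mb.

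Few long stretches lacked a site. All 139 together held 11.7 Mb of desert sequence, and only 26 of the 663 stretches with at least 100 kb of desert sequence were empty. The longest were in the immunoglobulin loci, from Ighv6-5 to Zfp386 (1.15 Mb of desert sequence) and from Igkv4-54 to Rpia (0.722 Mb). A stretch from Kdm4c to Dmac1 (0.613 Mb) was empty although both flanking promoters had a shared peak. Stretches with shared promoter peaks at 0, 1 and 2 flanking genes held 10.1, 12.3 and 13.3 sites per Mb. A gene here has a promoter peak when a shared peak touches 500 bp on either side of any of its starts.

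Of 20733 autosomal protein-coding genes, 1531 bordered desert sequence and 1307 (6.3%) flanked a stretch with a desert site. A promoter peak was present in 942 of the 1307 (72.1%), against 58.6% of all genes. The nearest protein-coding gene had a promoter peak for 4595 desert sites (76.5%), against 69.2% of nearer intergenic sites and 80% of all shared autosomal peaks. Gene lists are described by counts with no test. Genes beside long stretches flank desert sites by construction.

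Synaptic adhesion and axon guidance genes had the highest share of members flanking a site, and most members of this list bordered desert sequence. Of 85 autosomal members, 71 bordered it, 70 (82.4% of the 85) flanked a stretch with a desert site and 80 had a promoter peak. Cdh8, a cadherin gene, had 68 sites beside it and its neighbour Cdh11 had 50, part of them shared. Flrt2 had 54, Pcdh17 had 50 and Epha7, an ephrin receptor gene, had 43. These genes bordered 149 Mb of desert sequence, in which density was 8.33 sites per Mb, under the desert average.

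Forebrain transcription factor genes had fewer megabases and denser sites. Of 56 members, 38 bordered desert sequence, 35 (62.5% of the 56) flanked a site and 46 had a promoter peak. The 27.2 Mb beside the listed genes held 16.5 sites per Mb. Zeb2 had 41 sites, Sox11 had 26, Pou3f3 had 25, Sox2 had 23 and Nfib, which encodes an NFI protein, had 22. The highest site beside Pou3f3 lay 683 kb away with 2.14 in replicate 1 and 2.23 in replicate 2, and the highest beside Sox2 had 2.12 and 1.60 and lay nearest Atp11b.

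Genes for transcription factors of other tissues had open deserts too. Of 45 autosomal members, 23 bordered desert sequence and all 23 (51.1% of the 45) flanked a site, while only 8 had a promoter peak. The 12.9 Mb beside the listed genes held 19.7 sites per Mb. Gata3 had 37 sites, Sox9, a gene also active in astrocytes, had 34, Sall1 had 33, Sall3 had 22 and Tbx3 had 18. Of these genes, Sox9, Sall3 and Tbx3 had a shared promoter peak, and Gata3 and Sall1 had none. Whether the listed genes are active in cells of the hippocampus was not measured. The density beside this list exceeded that beside the forebrain factors, but each stretch has a second flanking gene, and to which gene a site belongs was not measured.

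Neurotransmitter receptor and ion channel genes followed. Of 67 autosomal members, 40 bordered desert sequence, 33 (49.3% of the 67) flanked a site and 58 had a promoter peak, with 11.3 sites per Mb. Kcna4, a potassium channel gene, had 31 sites, the glutamate receptor genes Gria1, Grm7 and Grik2 had 28, 28 and 27, and the muscarinic receptor gene Chrm3 had 17. Of 1465 olfactory and vomeronasal receptor genes, 22 had a promoter peak and only 8 bordered any desert sequence. The 2.12 Mb beside those 8 held 10.4 sites per Mb, and 3 of them flanked a site, Olfr1507 with 12, Olfr1505 with 6 and Olfr161 with 4. The 14 autosomal housekeeping genes all had a promoter peak and bordered no desert sequence, so none could flank a site.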

How the data were processed

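DNase-seq was measured in 2 libraries of 1 group, and each of the deposited files belongs to 1 library. Per the labels and the deposited notes, the files were made by the authors from each library's own mm10 alignments. Aligner, peak caller and footprint tool, with versions, were not given in the sources used here. The deposited peak signal is never negative and came in whole multiples of 1 step per library (0.00606 and 0.00795) within 0.05 of a step, so the median desert site stands 67 and 69 steps high, which limits its precision. What a step is in cuts is not given. The deposited FDR (a p-value type unit) lists only intervals below 0.05. The larger list of each library was used, and the smaller list, in which every peak holds a base below 0.001, was the stricter alternative. The authors' footprints carry the p-value type threshold 0.01 and were not ranked.

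Overlaps, distances, base composition, motif matches and footprint overlaps were computed in Python 3.11.15 with numpy 2.4.6, pandas 2.3.3 and scipy 1.17.1, and checked on simulated data. Sequence, repeat masking and the second annotation came from RefSeq's GRCm38.p6, whose chromosome lengths fit the files. Motifs were consensus letters on both strands, with the CTCF, MEF2, NRF1 and NFI palindrome consensus given by name. The shorter NFI motif can lie within the palindrome, and the other motifs were searched without regard to overlap. The start of a transcript counted as protein-coding by its own transcript type.

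Named were the 10 sites of highest mean signal, the 5 farthest, the 8 stretches with the most sites, up to 5 flanking genes with the most sites per list, 3 sites on each side of the distance limit, 3 ratios in each direction and 5 footprinted CTCF sites. One of the latter, on chromosome 18, is not printed. The members, the 6 gene lists and the motifs were chosen with earlier results of these data known. The RefSeq comparison and the E-box sequences were added after seeing the values. No test was run, since there is 1 group.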

Additional observations from a re-analysis of the deposited data

How the results depend on the processing

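Numbers of desert sites and shares changed with the definition, and the causes were not tested. The number was 4693 with a reciprocal overlap of 0.5, 3178 from the smaller peak lists, 9952 beyond 100 kb, 1807 beyond 500 kb and 447 with starts of all gene types. The median signal was 0.549 times that of all shared peaks beyond 500 kb, against 0.622. The share with a footprint in both libraries was 71.4% with a reciprocal overlap of 0.5, 82.6% from the smaller lists, 64.7% beyond 100 kb, 59.2% beyond 500 kb, 59.7% with all gene types, 64.2% for peaks of replicate 2 and 62.2% for footprints wholly inside. Median GC was 47.4%, 47.3%, 44.7%, 45.3% and 45.5% for the smaller lists, 100 kb, 500 kb, all gene types and peaks of replicate 2. Repeat bases were 7.33% for the smaller lists, 8.97% beyond 500 kb and 8.81% for peaks of replicate 2. CTCF matches were in 4.03% with reciprocal overlap, 4.41% in the smaller lists, 4.17% beyond 100 kb, 2.77% beyond 500 kb, 3.58% with all gene types, 3.36% for peaks of replicate 2 and 3.15% with repeat bases left out. The share found again, 81.0% as reported, was 63.3% with reciprocal overlap, 90.3% from the smaller lists and 50.8% for peaks of replicate 2.

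With either library left out the number ranged from 7416 (without replicate 2) to 11829 (without replicate 1), the relative median signal from 0.59 to 0.622, the footprint share, of that library's own footprints, from 57.4% to 69.4%, GC from 44.1% to 47.1%, repeats from 10.4% to 10.7% and CTCF from 2.49% to 2.78%. In all 8 settings in which both classes were recomputed, CTCF was less frequent and CAGATG more frequent in desert than in nearer intergenic sites, at 2.49% to 4.41% against 7.91% to 11.9% and at 38.2% to 42.7% against 31.1% to 32.4%.

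Alternatives added after seeing the data gave 3.28% CTCF with all transcripts of protein-coding genes (5675 sites), and 3.36% CTCF and 7.85% repeats in sites with a unique centre (5926 sites). Distances from the nearest peak edge gave 6007 sites. Signals divided by the library median kept 9 of the 10 strongest sites. No paired analysis was possible because there was only 1 group.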
